A study of Mus musculus with 12 samples.

Results

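The 32 imprinted genes examined here are Airn, Peg3, Usp29, Peg10, Sgce, Snrpn, Mest, Kcnq1ot1, Gnas, Nnat, Plagl1, Grb10, Inpp5f, Impact, Nap1l5, Mcts2, Zrsr1, Slc38a4, Zdbf2, Dlk1, Meg3, Rtl1, Rian, Dio3, Ndn, Magel2, Mkrn3, Peg12, Ube3a, Phlda2, Slc22a18 and Ppp1r9a. They were taken by name from the 55413 genes of the GENCODE M21 annotation of mm10, of which 21938 are protein-coding. All 32 were found, and they were chosen with earlier results of these data known. CUT&RUN, in which an antibody tethers a nuclease that releases the DNA around its target, was applied to C2C12 cells, a mouse myoblast line. In each of 4 states a library was made for MBD2 and a library for H3K4me3: day 0, day 1 of differentiation, day 5 myotubes, and day 5 reserve cells, which are mononucleated and had not fused. All cells were of this line and the differentiating ones were kept in medium with 2% horse serum, and at day 5 brief trypsin parted the myotubes from the reserve cells. There was 1 library per antibody and state, so every comparison here is of single libraries, without replicates or p-values. Another 4 libraries with control IgG were not analysed here.

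Imprinted genes are expressed from the copy inherited from one parent only. At many of them a region that gains DNA methylation in the egg or the sperm, the germline differentially methylated region, keeps that methylation on one copy in body cells, where ZFP57 and its partners recognise the methylated hexamer TGCCGC. H3K4me3, a histone mark of active or poised promoters, is known to lie on the unmethylated copy of such regions, and MBD2 is a reader of methylated CpG dinucleotides that belongs to the NuRD remodelling complex. The peak lists do not tell the parental copies apart.

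From day 0 through day 1 and myotubes to reserve cells, the MBD2 lists held 14948, 452, 288 and 111 peaks and the H3K4me3 lists 19218, 17665, 26034 and 15920. Background coverage, taken from the lists in place of read totals, lay between 1.08 and 1.47 fragments per base for H3K4me3. For MBD2 it was 0.36, 0.286, 0.776 and 0.947 in the same order, so the shortest MBD2 lists had the higher background. As a check of the state labels, 0, 6, 6 and 5 of 6 differentiated muscle genes carried promoter H3K4me3 in these states, and all 4 myoblast genes did in every state. The check sets day 0 apart but hardly separates the other states, so it cannot tell the myotube label from the reserve cell label.

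The stretches of sequence on which the results turn come from 2 kinds of place. The first kind is the MBD2 peaks that reached a promoter of an imprinted gene at day 0, shown for their CpG dinucleotides, which stand in capitals. The Inpp5f stretch is the whole peak, chr7:128611023-128611288 of mm10, plus strand, which lies before the first transcript start of the gene and overlaps no exon. The Sgce and Peg10 stretch, chr6:4746896-4747088, plus strand, is the part of the peak in the coding first exon and the first intron of Sgce.
Inpp5f: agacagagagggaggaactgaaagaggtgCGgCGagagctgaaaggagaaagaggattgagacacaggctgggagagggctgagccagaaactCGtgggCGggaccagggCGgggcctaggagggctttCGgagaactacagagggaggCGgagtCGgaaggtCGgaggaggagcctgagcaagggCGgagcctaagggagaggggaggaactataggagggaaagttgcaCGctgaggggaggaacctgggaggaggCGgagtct
Sgce and Peg10: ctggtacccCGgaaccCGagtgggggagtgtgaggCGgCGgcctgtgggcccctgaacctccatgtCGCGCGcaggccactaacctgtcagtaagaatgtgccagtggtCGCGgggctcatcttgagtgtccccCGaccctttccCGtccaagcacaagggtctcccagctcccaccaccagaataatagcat
The Inpp5f stretch holds 12 CpG in 266 bases and the Sgce stretch 11 in 193 bases. Neither holds TGCCGC on either strand.

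The second kind is the sequence directly before the start of 3 genes with a germline differentially methylated region, printed in the direction of transcription with each TGCCGC, or its reverse complement GCGGCA, in capitals. Mest and Snrpn carried H3K4me3 there in every library and Nap1l5 in none. Mest is chr6:30737800-30738049 on the plus strand, Snrpn is chr7:60005112-60005361 on the minus strand, and Nap1l5 is chr6:58907077-58907261 on the minus strand, ending where an exon of another gene begins.
Mest: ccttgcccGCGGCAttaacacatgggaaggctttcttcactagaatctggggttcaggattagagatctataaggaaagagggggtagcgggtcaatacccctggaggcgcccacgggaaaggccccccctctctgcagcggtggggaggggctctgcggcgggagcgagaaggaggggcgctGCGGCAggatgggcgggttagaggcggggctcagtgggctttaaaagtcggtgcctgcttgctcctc
Snrpn: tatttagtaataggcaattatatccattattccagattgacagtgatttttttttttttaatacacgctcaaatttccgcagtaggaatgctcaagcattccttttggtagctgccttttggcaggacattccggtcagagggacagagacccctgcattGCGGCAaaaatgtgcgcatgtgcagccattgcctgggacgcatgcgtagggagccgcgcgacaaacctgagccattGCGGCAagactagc
Nap1l5: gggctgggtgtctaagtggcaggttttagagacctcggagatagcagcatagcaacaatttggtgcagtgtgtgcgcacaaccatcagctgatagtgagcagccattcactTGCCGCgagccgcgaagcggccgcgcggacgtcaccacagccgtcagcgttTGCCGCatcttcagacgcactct
Each of the 3 stretches holds the hexamer 2 times, and they were picked after such values had been seen. In the 250 bases before their first start, 6 of the 32 imprinted genes (18.8%) hold at least 1 copy and 3 (9.38%) hold 2 or more, against 6.37% and 0.648% of all genes and 9.9% and 1.04% of protein-coding genes. The printed Mest and Snrpn stretches lie at later starts. Over all starts, 12 of the 32 genes hold at least 1 copy, and Mcts2, Plagl1 and Inpp5f hold 2 or more at a start besides the 3 genes printed, a tally for which no share of all genes was computed. The hexamer was thus present in marked and unmarked starts, and a match is a description of the letters only.

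H3K4me3 lay at the promoters of more than 1 in 2 of the imprinted genes in every state, and the set of marked genes hardly changed over differentiation. A promoter was counted as marked when a deposited peak touched the window from 1 kb before to 1 kb after any transcript start. Of the 32 genes, 19 were marked at day 0 (59.4%), 20 at day 1 (62.5%), 19 in day 5 myotubes (59.4%) and 17 in day 5 reserve cells (53.1%). Over all genes the shares were 28.6%, 28.2%, 29.2% and 27.2% in the same order, and over protein-coding genes 56.5%, 56.2%, 57.3% and 54.8%. The imprinted genes were therefore marked about as often as protein-coding genes. Of the 32, 17 were marked in all 4 libraries, 3 in some and 12 in none, that is 53.1%, 9.38% and 37.5%, against 53.6%, 5.67% and 40.8% of protein-coding genes.

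**Figure D1:**
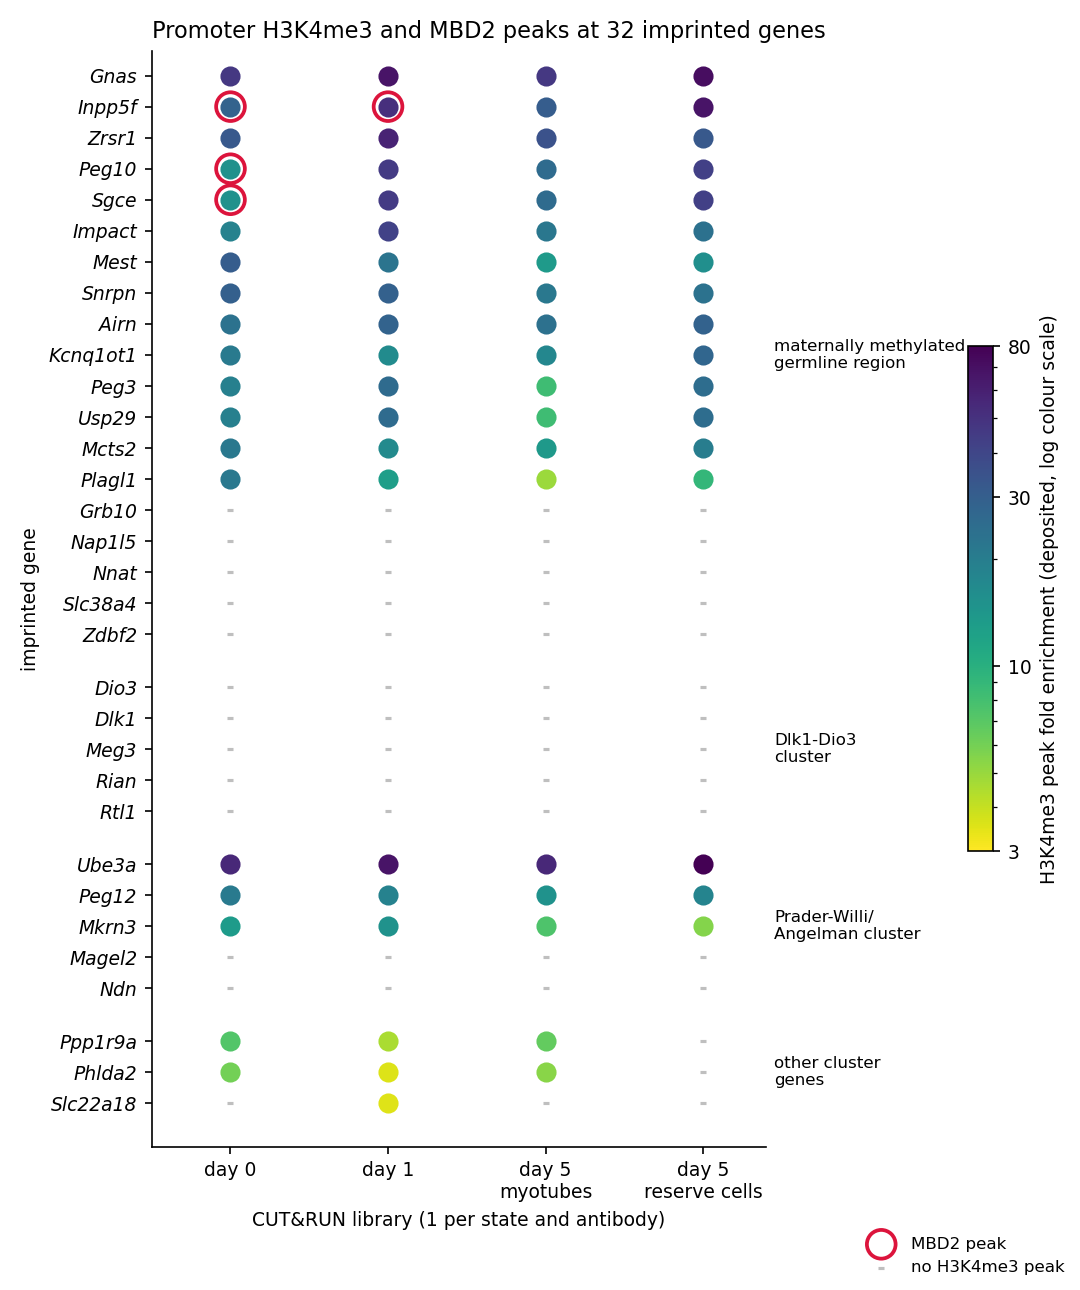
Promoter peaks at the 32 imprinted genes (rows, in 4 groups) in the 4 cell states (columns). A filled circle is an H3K4me3 peak, coloured on a log scale by its deposited fold enrichment, a grey dash is no H3K4me3 peak, and a red ring is an MBD2 peak. The Dlk1-Dio3 rows are empty throughout, 3 genes lose or gain circles, and the 4 rings fall on Inpp5f at days 0 and 1 and on Peg10 and Sgce at day 0.

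The 19 genes grouped here by a maternally methylated germline region have it at a start or inside the gene, except Zdbf2, whose region lies farther upstream in mouse. Counted through any start, 14 of these were marked in all 4 libraries and 5 in none, with no gene in between. The internal starts of Inpp5f had no peak at day 1, so its call in every library rests on its first start. The fold enrichments that follow are the authors' values for single peaks and serve to place a peak within its own list. Gnas, which encodes the stimulatory G protein alpha subunit, had a peak of 9457 bp at day 0, 8640 bp at day 1, 8895 bp in day 5 myotubes and 8222 bp in day 5 reserve cells, with fold enrichments of 46.8, 67.0, 47.2 and 72.0. This peak covered 5 of its 7 distinct starts, so its width and fold cannot be assigned to any 1 of them, imprinted or not. The start that lies farthest upstream had a peak at day 0 only, with a fold of 3.82. Zrsr1, a splicing factor relative inside an intron of Commd1, had folds of 32.4, 58.5, 34.8 and 32.2, and Mest, an alpha/beta hydrolase family gene, had 30.7, 22.7, 13.5 and 15.8. Taking for each marked gene of the group its promoter peak of highest fold, that of Plagl1, a zinc finger transcription factor, was the narrowest. The exception was reserve cells, where that of Mcts2 was narrower. The Plagl1 peak had 1152 bp at day 0, 1053 bp at day 1, 473 bp in day 5 myotubes and 1066 bp in day 5 reserve cells. Its folds were 21.4, 12.9, 4.94 and 9.12.

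Both long non-coding RNAs of the group that silence neighbouring genes in cis were marked at their starts. Airn, which silences Igf2r, had folds of 23.1, 28.5, 23.7 and 28.8, and its peak spanned 1700, 1850, 2016 and 1899 bp. Kcnq1ot1, which silences genes of the Kcnq1 domain, had folds of 21, 16.6, 17.4 and 27.4. The protein-coding genes that overlap them differed. Igf2r carried promoter peaks in all 4 libraries, with folds of 11.2, 22.9, 15.0 and 16.4, and Kcnq1 carried none. Each is 1 gene and does not stand for its domain. Slc22a2 and Slc22a3, near Igf2r, had no promoter peak in any library. Cdkn1c, near Kcnq1, had folds of 4.96, 7.33, 11.2 and 13.9. These genes were picked after their values were seen.

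Peg3 and Usp29 start head to head and shared 1 peak, as did Peg10 and Sgce, so these 4 genes give 2 measurements. Peg3 encodes a zinc finger protein, Usp29 a ubiquitin peptidase, Peg10 is derived from a retrotransposon and Sgce encodes epsilon-sarcoglycan of the muscle membrane complex. The Peg3 and Usp29 peak had folds of 19.5, 25.7, 8.35 and 25, and the Peg10 and Sgce peak had 15.3, 45.0, 25.7 and 43.2. Impact, a regulator of translation, had 19, 42.1, 21.9 and 23.4. Snrpn, a splicing protein whose start lies at the Prader-Willi imprinting centre, had 29.5, 29.3, 21.6 and 23.1, with the peak at the start for which sequence is given above and none at its upstream start.

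Mcts2, Zrsr1, Nap1l5 and the imprinted transcript of Inpp5f each start inside a larger host gene. Mcts2, a retrogene in H13, had peaks with folds of 21.6, 16.9, 13.8 and 20.1, against 57.2, 96.2, 35.9 and 78.6 at the H13 promoter. Nap1l5, a nucleosome assembly protein relative inside Herc3, had no peak nearer than 43986 bp to its start in any library, while Herc3 had folds of 41.3, 41.3, 28.9 and 25. At Inpp5f, which encodes a phosphoinositide phosphatase, the first start had folds of 28.5, 51.2, 30.7 and 67.2. Both internal starts together had 1 peak, with folds of 3.24 at day 0, 4.50 in day 5 myotubes and 4.32 in day 5 reserve cells, and no peak at day 1. In mouse the imprinted Inpp5f transcripts begin inside the gene, so the stronger of these marks lies at the start of the full-length transcript.

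The 5 unmarked genes of this group were Nnat, Grb10, Nap1l5, Slc38a4 and Zdbf2. Grb10, an adaptor that restrains insulin signalling, had its nearest H3K4me3 peak 114270 bp from a start at day 0, 160872 bp at day 1, 77384 bp in day 5 myotubes and 160954 bp in day 5 reserve cells. Slc38a4, an amino acid transporter, had it at 46457, 190720, 41423 and 189300 bp, and Zdbf2, a zinc finger gene, at 93350, 94330, 33123 and 94607 bp. Nnat, a brain proteolipid gene inside Blcap, had it at 4451 to 4751 bp, which is the edge of the Blcap promoter peak. Blcap had folds of 62.2, 50.1, 60.7 and 87.4.

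None of the 5 genes examined in the Dlk1-Dio3 cluster carried promoter H3K4me3 in any library. The cluster on chromosome 12 holds the paternally expressed Dlk1, an inhibitor of adipocyte differentiation, Rtl1, a retrotransposon-derived gene, and Dio3, the deiodinase that inactivates thyroid hormone, and the maternally expressed non-coding RNAs Meg3 and Rian. At day 0 the nearest peak lay 384311 bp from a Dlk1 start, 472467 bp from Meg3, 436555 bp from Rian, 486910 bp from Rtl1 and 166647 bp from Dio3. In the other 3 libraries these distances were between 101973 bp, for Dio3 in myotubes, and 535528 bp, for Rian in reserve cells. No H3K4me3 peak thus lay nearer than 101973 bp to any start of these 5 genes. Begain, a further imprinted gene of chromosome 12 that is not among the 32 and was picked after its values were seen, carried promoter peaks in every library, with folds of 13.8, 5.35, 6.11 and 5.96.

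The Prader-Willi and Angelman cluster on chromosome 7 was divided. Ube3a, a ubiquitin ligase imprinted in neurons and expressed from both copies in most other cells, had the highest fold of all 32 genes in each library, with 55.4, 67.7, 55.8 and 79.7. Peg12 had folds of 21, 18.9, 15.0 and 18.2, and Mkrn3, a makorin ring finger gene, had 13.3, 15.1, 7.52 and 5.55. Ndn and Magel2, both of the MAGE family, had no promoter peak in any library. Near Ndn, however, small peaks lay 1672 bp from the start at day 1 and 1782 bp in reserve cells, while the nearest peak was 35448 bp away at day 0 and 72523 bp in myotubes.

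The 3 remaining genes were the ones whose calls differed between libraries. Phlda2, a brake on placental growth, had a peak of 700 bp and a fold of 6.07 at day 0, 405 bp and 3.55 at day 1, 686 bp and 5.40 in myotubes, and none in reserve cells. Ppp1r9a, which encodes the actin-binding protein neurabin, had 667 bp and 7.28 at day 0, 323 bp and 4.54 at day 1, 1132 bp and 6.64 in myotubes, and none in reserve cells. Slc22a18, a transporter of the Kcnq1ot1 domain, had a peak at day 1 only, of 288 bp and a fold of 3.52. All 7 of these peaks were among the weaker ones of their lists, with between 59.5% and 97.2% of peaks having a higher fold.

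Gains and losses were correspondingly few. At day 1 against day 0, 1 of 13 unmarked genes gained a peak, Slc22a18 (0.69% of all unmarked genes), and 0 of 19 lost it (3.13% of all marked genes). In myotubes against day 0, 0 of 13 gained (2.56%) and 0 of 19 lost (4.11%). In reserve cells against day 0, 0 of 13 gained (0.52%) and 2 of 19 lost, Phlda2 and Ppp1r9a (6.15%). In myotubes against reserve cells the same 2 genes were the gains among 15 (3.48%), and 0 of 17 lost (1.83%). The imprinted genes' counts are too small to be set apart from these shares.

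The peaks at imprinted promoters were weaker than those of marked genes in general in the same library, though of similar width. Distinct promoter peaks had a median fold of 21.4 at the imprinted genes at day 0, against 45.0 at all marked genes (17 and 11974 peaks). The medians were 24.2 against 54.1 at day 1, 17.4 against 33.3 in day 5 myotubes and 25 against 50.9 in day 5 reserve cells. Below the median of all marked genes lay 15 of 17 imprinted promoter peaks at day 0, 15 of 18 at day 1, 14 of 17 in day 5 myotubes and 12 of 15 in day 5 reserve cells. Median widths were 2528 bp against 2584 bp at day 0, 2299.5 bp against 2364 bp at day 1, 2016 bp against 2255 bp in day 5 myotubes and 2556 bp against 2063 bp in day 5 reserve cells.

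**Figure D2:**
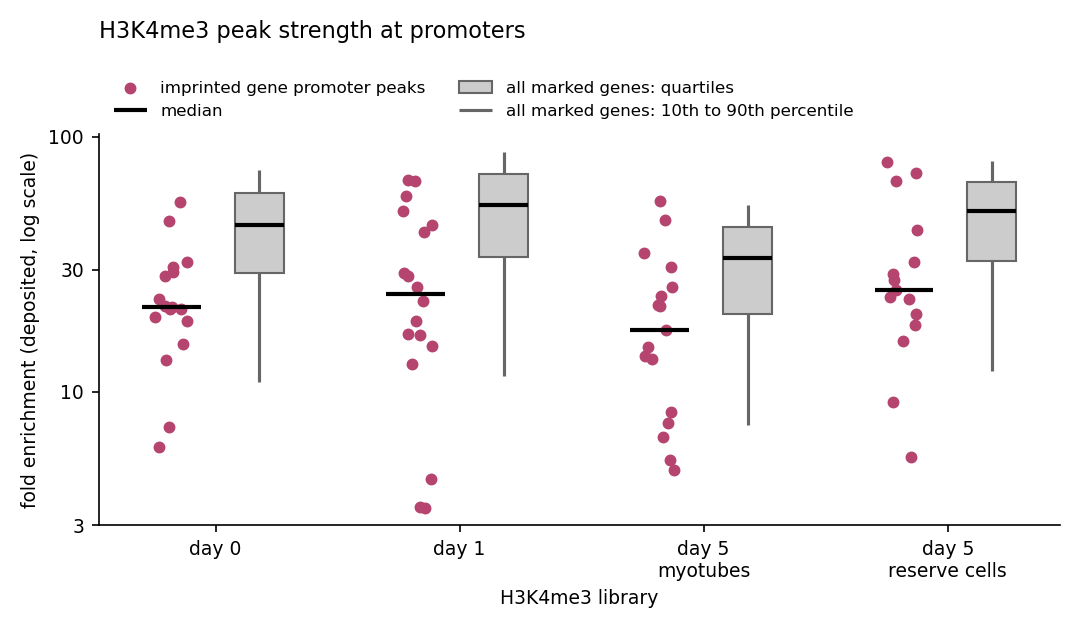
Deposited fold enrichment (log scale) of distinct H3K4me3 promoter peaks in each library. Points are the imprinted genes' peaks, boxes are the quartiles of all marked genes, lines reach from the 10th to the 90th percentile, and black bars are medians. The imprinted median is the lower in each library, for example 21.4 against 45.0 at day 0.

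The imprinted promoters also stood low when each list was ranked by −log10 q and only its stronger 50% was kept. At day 0, 4 of 32 imprinted genes (12.5%) then had a promoter peak, Gnas, Inpp5f, Ube3a and Zrsr1, against 22.4% of all genes and 45.7% of protein-coding genes. At day 1, Peg10 and Sgce joined these 4 to make 6 (18.8%), against 20.9% and 42.7%. In reserve cells 5 had one, Gnas, Inpp5f, Peg10, Sgce and Ube3a (15.6%), against 19.1% and 39.2%. In myotubes the count was 13 (40.6%), against 26.1% and 52.6%. The myotube list is the longest and has a median fold of 9.55, against 29.0, 38.6 and 39.8 in the lists of day 0, day 1 and reserve cells. The part of this difference in the myotube count was not tested. As a share of marked genes, 21.1%, 30%, 68.4% and 29.4% of the imprinted ones were in the stronger 50% for day 0, day 1, myotubes and reserve cells, against 80.8%, 76.0%, 91.8% and 71.4% of protein-coding ones.

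**Figure D3:**
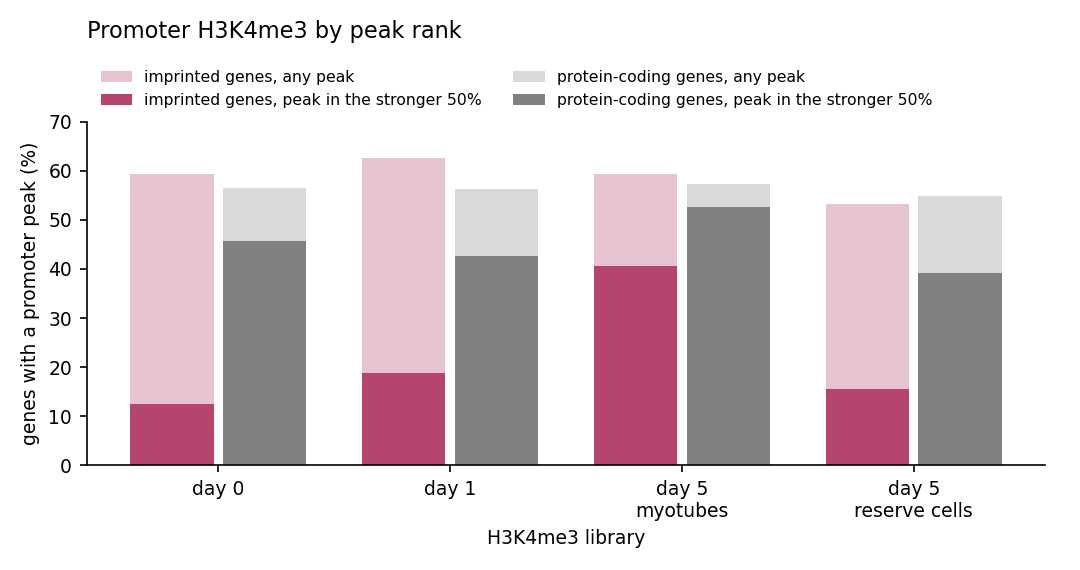
Share of genes with a promoter H3K4me3 peak per library, for the 32 imprinted genes (left bar) and all protein-coding genes (right bar). Full bars count any peak and dark bars count peaks in the stronger 50% of the list by −log10 q. Full bars are close in each pair, from 53.1% to 62.5% against 54.8% to 57.3%, while the dark bars differ, for example 12.5% against 45.7% at day 0.

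The breadth of the mark, counted as bases under H3K4me3 peaks within 5 kb of a gene's annotated 5′ end, moved with that of all genes. The median log2 ratio was −0.14 for 16 imprinted genes and −0.14 for all genes at day 1 against day 0, and −0.06 and −0.15 in myotubes against day 0. It was −0.35 for 14 imprinted genes and −0.35 for all genes in reserve cells against day 0. In myotubes against reserve cells it was 0.29 and 0.18. Each median is over genes with covered bases in both libraries, and genes that share a promoter count separately. The reserve cell list was the shortest H3K4me3 list and had the lowest background coverage, 1.08 fragments per base, against 1.47 at day 0, and their part in the lower breadth was not tested.

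At day 1 against day 0, 0 of 16 imprinted genes were at least 1.5-fold broader (1.47% of all genes) and 3 were at least 1.5-fold narrower (6.76%), Nnat, Phlda2 and Ppp1r9a. In myotubes against day 0, Ppp1r9a was broader (1 of 16, against 7.4%), and Nnat and Peg12 were narrower (2 of 16, against 14%). In reserve cells against day 0, 0 of 14 were broader (0.772%) and 5 were narrower (21.3%), Peg3 with Usp29, Impact, Mcts2 and Nnat. In myotubes against reserve cells, Peg3 with Usp29, Mcts2 and Ube3a were broader (4 of 14, against 17.1%) and Peg12 was narrower (1 of 14, against 3.12%).

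Around the 5′ ends shared by Peg3 and Usp29, peaks covered 5812 bp at day 0, 5744 bp at day 1, 5068 bp in day 5 myotubes and 3251 bp in day 5 reserve cells. Mcts2 had 1780, 1263, 2274 and 928 bp in the same order. Peg12 had 2717, 2332, 1286 and 2211 bp. Its myotube breadth was the lowest of the 4, whereas for most imprinted genes the reserve cells had the lowest. Ube3a had 4441, 3862, 4832 and 3207 bp, Zrsr1 4567, 4292, 5405 and 4336 bp, and Inpp5f 2388, 2267, 2237 and 1808 bp.

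Breadth at the annotated 5′ end misses some marked starts. Snrpn, Mest and Plagl1 were at 0 bp in every library, since their peaks lie more than 5 kb from that end, and Gnas had 246 bp at day 0 and 0 bp later. For Nnat the 198 to 498 bp belong to the Blcap peak, and for Impact the bases lie at its annotated 5′ end, upstream of the marked start.

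**Figure D4:**
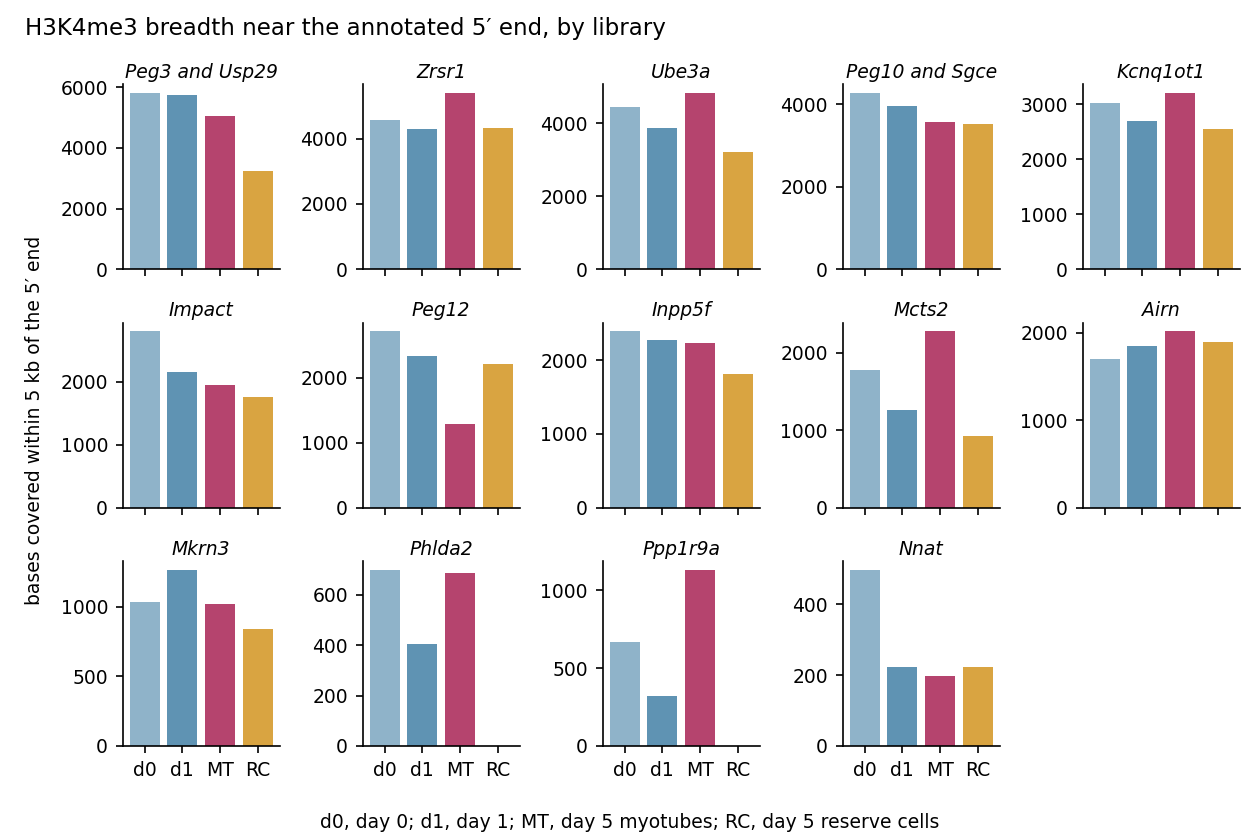
Bases under H3K4me3 peaks within 5 kb of the annotated 5′ end in each library (day 0, day 1, day 5 myotubes, day 5 reserve cells), 1 panel per gene or shared promoter, each with its own scale from 0. Reserve cells have the shortest bar in most panels, as for Peg3 and Usp29 with 3251 bp against 5812 bp at day 0, and no bar for Phlda2 and Ppp1r9a, while Peg12 is shortest in myotubes with 1286 bp.

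MBD2 peaks were listed at few imprinted promoters, and in these lists at days 0 and 1 alone. It reached 3 of 32 promoters at day 0 (9.38%, against 6.36% of all genes), 1 at day 1 (3.12%, against 0.547%), 0 in day 5 myotubes (0.336%) and 0 in day 5 reserve cells (0.141%). Peg10 and Sgce shared the same peak at day 0, and the third gene, Inpp5f, was also the one at day 1. The MBD2 lists themselves ran down to 452, 288 and 111 peaks after day 0. When each MBD2 list was limited to its strongest 111 peaks, 0 imprinted promoters had MBD2 in every library, and with a fold of at least 5 there were 3 at day 0 and 0 in the other libraries. The calls at days 0 and 1 were thus not kept at equal list length. In each case H3K4me3 of the same state overlapped the MBD2 peak, for 3 of 3 genes at day 0 and 1 of 1 at day 1, as it did for 85.4% and 88.8% of all genes with promoter MBD2. The shares of all genes above thus include many promoters without H3K4me3. Of all genes with promoter H3K4me3, 3011 of 15830 had overlapping MBD2 at day 0 and 269 of 15608 at day 1. Of the marked imprinted genes, 3 of 19 and 1 of 20 did.

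The Inpp5f peak had a fold of 7.97 from 10 fragments at day 0, with 25.9% of the list higher, and a fold of 4.62 from 5 fragments at day 1, with 88.3% higher. At day 1 it spanned chr7:128611075-128611288, within the day 0 peak and with the same end. It lay 72 bp before the first start of Inpp5f, overlapping the H3K4me3 peaks with folds of 28.5 and 51.2, and so at the start of the full-length transcript. The Sgce and Peg10 peak had a fold of 5.02 from 6 fragments, 69.8% of the list being higher, and overlapped the H3K4me3 peak of fold 15.3.

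Away from promoters, MBD2 at day 0 lay inside further imprinted genes. In all, 13 distinct day 0 peaks fell in 11 of the 32 genes, 2 of them at promoters and 11 away from them. Counting gene bodies alone, 10 of 32 genes held a peak, against 10.1% of all genes, without allowance for gene length. At day 1 no gene body held a peak (0.554% of all genes), and none did later. The strongest lay in an intron of Ppp1r9a, chr6:5082167-5082861, with a fold of 16.5 and 3.69% of the list higher, and the next in an intron of Grb10, chr11:11939426-11939799, with a fold of 10.3. They lay 176751 bp and 30843 bp from the nearest start, and neither overlapped H3K4me3.

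A peak in an intron of Peg3, chr7:6728062-6728603, lay 1818 bp from the start and inside the 5812 bp H3K4me3 peak that Peg3 shares with Usp29. Its fold was 5.03 from 8 fragments. The peaks in Airn (fold 7.35), Usp29 (6.45) and the body of Inpp5f (5.88) also overlapped H3K4me3, whose folds there were 5.09, 10.7 and 2.87. Those in Kcnq1ot1, Rian, Slc38a4, Sgce (6322 bp from its start) and the other one in Ppp1r9a did not. Of the 11 peaks away from promoters, those in Kcnq1ot1 and Sgce touched an annotated exon and the rest were intronic.

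The MBD2 peaks in imprinted genes, most of them away from promoters, held few CpG dinucleotides. Within 100 bp of each summit the 13 peaks had a median of 1 CpG, against 2 over all 14948 day 0 peaks, and 4 of the 13 had none (30.8%, against 13.7%). The exceptions were the promoter peaks, with 12 CpG at Sgce and Peg10 and 10 at Inpp5f. The other 11 lay away from promoters, while the full list mixes both kinds. No value was computed for all day 0 peaks away from promoters, so the difference cannot be assigned to imprinted genes. TGCCGC was in 0 of 13 windows, against 3.26% of all day 0 peaks.

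Marked imprinted starts were rich in CpG, like those of other marked genes, and so were some unmarked ones. Within 500 bp of a start, 25 marked starts had a median observed to expected CpG ratio of 0.70 and 35 unmarked starts one of 0.32. Starts of the same gene within 500 bp of each other were taken once. The promoters shared by Peg3 and Usp29 and by Peg10 and Sgce count for each gene. Genes with several spaced starts, such as Rian, also count more than once, and unmarked starts include some of genes marked elsewhere. Protein-coding genes, each taken at its first start but called marked through any start, had 0.73 where marked and 0.20 where not. Unmarked yet rich in CpG were the first starts of Grb10 (1.06), Zdbf2 (0.98), Dio3 (0.88), Nnat (0.87) and Nap1l5 (0.71), and a Dlk1 start (0.83). Marked yet poor in CpG were Slc22a18 (0.09 at its first start), Impact (0.38) and Kcnq1ot1 (0.45). The Impact peak began between 80 and 335 bp past the start, so its value covers little of the marked DNA.

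**Figure D5:**
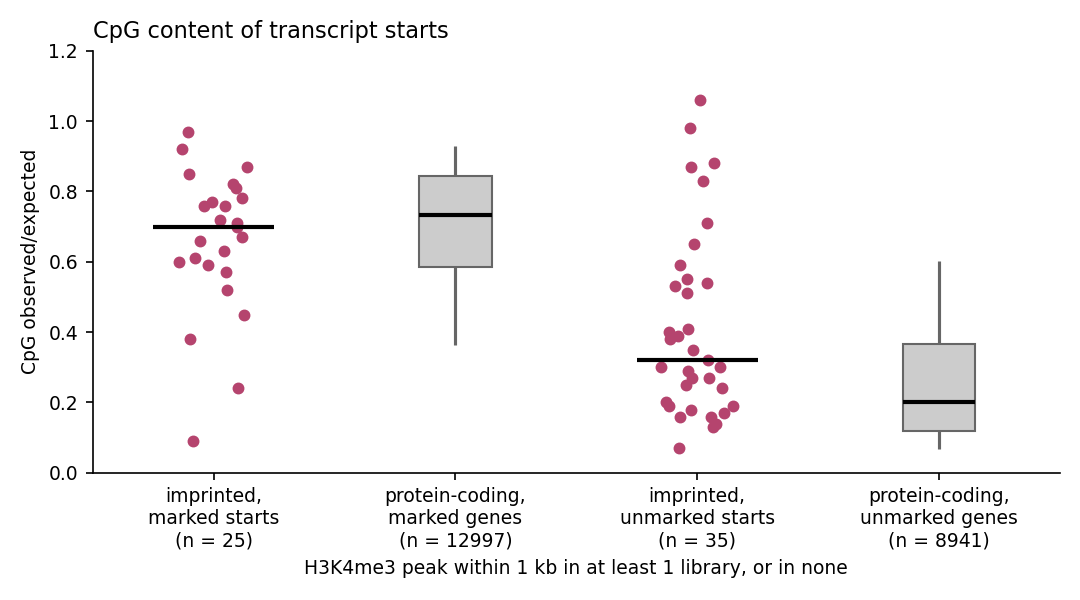
Observed to expected CpG ratio within 500 bp of transcript starts. Points are imprinted gene starts, with shared promoters counted for each gene. They have an H3K4me3 peak within 1 kb in at least 1 library (25) or in none (35). Boxes are quartiles of protein-coding genes, lines the 10th to 90th percentile, and black bars medians. The medians are 0.70 and 0.32 for imprinted starts and 0.73 and 0.20 for protein-coding genes, and 6 unmarked imprinted starts lie above 0.70.

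TGCCGC occurred in 14 of the 25 marked starts (56%) and 10 of the 35 unmarked ones (28.6%), against 48.8% and 16% of protein-coding genes. The starts of Peg3, Usp29, Peg10 and Sgce all hold it and count separately here, though they share promoters. The start of Mest held 10 copies in its window, more than any other imprinted start. Nnat and Plagl1 held 6 each, and Snrpn and Nap1l5 held 5 each. Nnat and Nap1l5 are unmarked and the other 3 are marked, so a high number of copies went with both states.

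Imprinted genes outside the 32 gave a like division, close to that of protein-coding genes. They are not separate from the 32, since Snurf has the Snrpn peak and hosts such as Blcap, H13 and Herc3 are among them. Of 64 further imprinted genes, 34 carried promoter H3K4me3 in all 4 libraries, 8 in some and 22 in none. Of 16 genes for factors that set or keep imprints, 12 were marked in all 4 and 4 in none. The shares of protein-coding genes in all, some and no libraries were 53.6%, 5.67% and 40.8%, and those of all genes 26.4%, 4.29% and 69.3%. Promoter MBD2 was present at 5 of the 64 and at 4 of the 16 at day 0, against 6.36% of all genes. All of these genes carried promoter H3K4me3, while the share of all genes includes genes without it. Gab1, an adaptor of receptor tyrosine kinases imprinted in placenta, was the one of the 64 with MBD2 in every library, with folds of 5.01, 5.82, 4.73 and 4.74. H19, the maternally expressed non-coding RNA, had an MBD2 peak of fold 3.91 at day 0 and H3K4me3 folds of 17.6, 33.7, 25.2 and 16.5.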

How the data were processed

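C2C12 chromatin was profiled by CUT&RUN with 1 library per antibody and state, and 8 peak lists were used. Per the submitters' processing notes the tools were Trim Galore, Bowtie2 with mm10, SAMtools and MACS2. The sources used here give neither tool versions, caller settings and depths nor whether IgG served as control. The deposited pileup is a signal, the fragments over the summit. Fold enrichment, per the file headers, divides the pileup by the local background and is a ratio. The deposited −log10 of p and of q have damaged column names and were read by their place in the MACS2 layout. Starts, ends and lengths are in bases, per the file headers.

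Autosomal, X and Y peaks were set against transcript starts of the GENCODE M21 basic annotation. Background coverage is the lowest value of (pileup + 1)/fold − 1 in a list. Promoter calls, overlaps of at least 1 bp, breadth within 5 kb and 1.5-fold differences were computed with Python 3.11.15 and pandas 2.3.3, and were tested on simulated peaks with known positions. Sequence was read from the reference of the same build. With 1 library per group no test was run, and counts of imprinted genes are given beside the share of all genes. All 32 genes are named. Other named genes are the hosts or neighbours of these genes, and those of the 64 and 16 listed genes with promoter MBD2 in any library or H3K4me3 in some but not all, at most 10 per list by highest fold. The genes and lists were chosen with earlier results of these data known, and the sequences and the ranking by peak strength were picked after values had been seen.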

Additional observations from a re-analysis of the deposited data

How the results depend on the processing

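Of 196 values recomputed under other settings, 146 stayed within 1.5 times of the reported count, or within 0.1 of a median log2 ratio, 50 moved further and 0 reversed. Only the medians could reverse, since a count has no sign. The values that stayed include counts of 0 that remained 0, as for promoter MBD2 in myotubes and reserve cells, where a shorter list could add none. A promoter of 500 bp, H3K4me3 over at least 50% of the MBD2 peak and, chosen after seeing the data, the full annotation moved none.

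With the stronger 50% of each list, H3K4me3 was at 4 promoters at day 0, 6 at day 1 and 5 in reserve cells, in place of 19, 20 and 17, and MBD2 was at 1 (1 with both marks) at day 0 and 0 at day 1. Gains were then 2 at day 1 and 9 in myotubes against day 0, 2 in reserve cells against day 0 (1 lost) and 8 in myotubes against reserve cells. The medians became −0.57 for reserve cells against day 0 and 0.08 for myotubes against reserve cells, and counts past 1.5-fold were 1 narrower at day 1, 0 broader and 1 narrower in myotubes and 2 narrower in reserve cells, all against day 0, and 0 and 0 in myotubes against reserve cells. Which genes pass here depends on rank, as the report describes.

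With equal numbers of peaks per antibody, 0 promoters had MBD2 at day 0 and at day 1 (0 with both marks), since 111 peaks were then kept of each MBD2 list. There were 0 gains at day 1 against day 0, losses were 1 at day 1 and 2 in myotubes against day 0, and in myotubes against reserve cells 1 gained, 1 lost and 2 were broader. With a fold of at least 5, MBD2 was at 0 promoters at day 1. With 2 kb promoters, which take in the Peg3 intron, MBD2 was at 5 at day 0, 5 with both marks, while 2 genes gained H3K4me3 at day 1 and 1 in reserve cells against day 0, and 1 lost it in myotubes against reserve cells. At the annotated 5′ end alone, 1 gene lost H3K4me3 at day 1 and 1 in myotubes against day 0.

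With breadth within 2.5 kb, the median of myotubes against reserve cells was 0.19, 1 gene was broader there, and 1 was narrower in myotubes and 3 in reserve cells against day 0. Within 10 kb, 3 were broader in myotubes against day 0. At 2-fold, 0 were broader in myotubes and 1 was narrower in reserve cells against day 0, and in myotubes against reserve cells 1 was broader and 0 narrower. Around any transcript start, also chosen after seeing the data, 1 was broader at day 1 and 4 were narrower in myotubes against day 0, and 3 were narrower in myotubes against reserve cells. The cause was not tested where none is named. No paired analysis was possible because each group holds 1 library. Read totals are unknown, and MBD2 peaks of 5 to 10 fragments set the limit of what these lists can show, so a promoter without a peak may carry MBD2 below it.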

Other observations

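Among the 64 further imprinted genes, 8 had promoter H3K4me3 in some libraries only, and the 5 with the highest folds had the following values. Art5, an ADP-ribosyltransferase gene, had folds of 43.6 in myotubes, 5.28 in reserve cells, and no peak at day 0 or day 1. Tspan32, a tetraspanin gene, had 3.09 at day 0, 22.3 at day 1, 24.1 in myotubes, but no peak in reserve cells. Dcn, which encodes the matrix proteoglycan decorin, had 18.2 at day 1 and 4.32 in reserve cells, and none at day 0 or in myotubes. Adam23, a disintegrin family gene, had 10.9 at day 0, 3.10 at day 1, 3.35 in myotubes, but no peak in reserve cells. Htr2a, a serotonin receptor gene, had 8.97 at day 0, 3.60 in myotubes, 4.10 in reserve cells, but no peak at day 1.

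Of the 16 genes for factors that set or keep imprints, the 4 with promoter MBD2 had it at day 0 only. Arid4b and Arid4a, which encode paralogous chromatin proteins, had MBD2 folds of 22.1 and 16.5. Smchd1, a silencing factor of the inactive X and of imprinted clusters, had 4.30, and Uhrf1, which guides maintenance methylation, had 3.91. All 4 carried promoter H3K4me3 in every library, with folds between 28.6 and 101.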
